A study of Homo sapiens with 30 samples.

Results

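Exonic peaks away from promoters were described for H3K27me3 and H3K9me3, a pair of repressive histone marks, in HEK293T, a cell line derived from human embryonic kidney. A peak on chromosomes 1 to 22 was taken when its summit, the base with the most ChIP fragments, lay in an exon of a protein-coding gene and more than 1 kb from the start of any gene. Genes whose symbol starts with ZNF, PCDHA, PCDHB or PCDHG were left out. The rule used position alone and no measured level. It found 5321 peaks among 331442 on these chromosomes in 5 peak lists, and the whole series holds 431864 peaks. The members numbered 1251 of 73667 for H3K27me3 in the negative control (NC), 1140 of 58801 after LINC00641 was depleted (ΔLINC00641) and 1230 of 68848 after SETD5-AS1 was depleted (ΔSETD5-AS1). The H3K9me3 members numbered 950 of 75538 in NC and 750 of 54588 when LINC00662 was depleted (ΔLINC00662).

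Depletion was made with antisense oligonucleotides (ASOs), short strands that pair with an RNA and lead to its cleavage, in cells collected 48 h after transfection. NC cells received a control ASO. The file headers name 1 ASO each for LINC00641 and SETD5-AS1 and a mix for LINC00662. The study has 30 samples in 10 groups of 3 replicates, but every list was called on the merged replicates of a ChIP group against its merged input, so replicate error is not known for any value and no difference between groups was tested. The identity of the cells and the loss of each RNA could not be checked from peak lists, which carry no RNA levels. The H3K27me3 lists correspond to 39.1 M (NC), 38.1 M (ΔLINC00641) and 45.0 M (ΔSETD5-AS1) fragments. The H3K9me3 lists correspond to 42.2 M (NC) and 34.6 M (ΔLINC00662).

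H3K27me3 is placed by Polycomb repressive complex 2, whose catalytic subunit is EZH1 or EZH2, and marks genes that are silent in a cell type, often as broad domains over promoters and gene bodies. H3K9me3 is placed by SUV39H1, SUV39H2 and SETDB1 and marks heterochromatin, repeats and the 3′ exons of zinc finger genes. Within a gene body, exons differ from introns in sequence, since coding sequence is richer in G and C and poorer in repeats.

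To show what the strongest coding-sequence peaks lie on, the summit base and 60 bases on either side are given from the hg19 genome on the strand of the gene. They belong to the first peaks, in order of −log10 q in NC, whose window held no untranslated region (UTR), 3 for H3K27me3 and the only 2 of 5 that qualified for H3K9me3. The capitals mark CpG dinucleotides, the bases at which DNA is methylated. The H3K27me3 windows are EGR4 (chr2:73519460-73519580, minus strand), TCHH (chr1:152082259-152082379, minus strand) and CACNA1E (chr1:181452957-181453077, plus strand), and the H3K9me3 windows are ZFP62 (chr5:180277670-180277790, minus strand) and TAF7 (chr5:140698877-140698997, minus strand). All of them are coding over their full length.
EGR4: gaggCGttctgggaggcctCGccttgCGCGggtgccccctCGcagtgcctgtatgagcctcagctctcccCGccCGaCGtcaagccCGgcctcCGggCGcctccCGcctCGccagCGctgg
TCHH: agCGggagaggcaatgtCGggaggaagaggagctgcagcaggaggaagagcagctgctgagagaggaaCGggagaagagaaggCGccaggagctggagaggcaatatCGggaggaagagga
CACNA1E: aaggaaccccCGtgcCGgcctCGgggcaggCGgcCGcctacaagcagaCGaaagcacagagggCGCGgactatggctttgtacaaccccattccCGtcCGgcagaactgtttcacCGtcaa
ZFP62: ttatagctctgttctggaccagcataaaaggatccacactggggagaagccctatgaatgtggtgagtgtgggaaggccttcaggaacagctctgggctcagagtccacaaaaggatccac
TAF7: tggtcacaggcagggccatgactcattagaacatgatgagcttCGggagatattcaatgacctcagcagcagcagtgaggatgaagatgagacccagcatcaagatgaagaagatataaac

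The windows of the marks differed in CpG content. EGR4 held 14 CpGs at 75.2% GC, CACNA1E 11 at 62.8% and TCHH 5 at 60.3%, whereas ZFP62 held 0 at 51.2% and TAF7 held 1 at 46.3%. The CACNA1E summit lay within 1 kb of an annotated transcript start. The EGR4 and TAF7 summits lay 1309 and 1402 bp from the nearest gene start. These few windows do not stand for their lists. Over all exonic peaks the mean number of CpGs in the same window was 2.99, 3.20 and 2.93 in the H3K27me3 lists (NC, ΔLINC00641, ΔSETD5-AS1) and 3.17 and 3.40 in the H3K9me3 lists (NC, ΔLINC00662). Over all autosomal peaks it was lower in each list, at 1.67, 1.88, 1.71, 2.18 and 2.65. Exonic peaks with at least 3 CpGs made up 43.96% of the H3K27me3 NC members, beside 22.6% of all peaks of that list.

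The ZFP62 window holds GAGAAGCC, letters of the linker that joins neighbouring fingers in zinc finger genes. This motif was chosen after that sequence had been read. On either strand it was found in the windows of 20 of the 950 H3K9me3 NC members (2.11%, Wilson 95% interval 1.37 to 3.23), beside 0.514% of all autosomal peaks of that list. In ΔLINC00662 it was found in 17 of 750 (2.27%), beside 0.509%. The genes with it in H3K9me3 NC included the zinc finger genes ZFP28, ZFP62, ZKSCAN8, ZSCAN20, PEG3 and PRDM9, and 5 copies of FAM90A, a multi-copy family. In the H3K27me3 lists it was found in 1.28%, 0.702% and 1.14% of members, beside 0.766%, 0.821% and 0.752% of all peaks.

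Exonic peaks were a small share of each list. Of the autosomal H3K27me3 peaks they were 1.70% for NC (Wilson 95% interval 1.61 to 1.79), 1.94% for ΔLINC00641 (1.83 to 2.05) and 1.79% for ΔSETD5-AS1 (1.69 to 1.89), and 1.26% (1.18 to 1.34) and 1.37% (1.28 to 1.48) of the H3K9me3 peaks in NC and ΔLINC00662. Such intervals treat each peak as independent, and nothing but counting error enters them. Eligible exonic sequence, 89.1 Mb, is 3.32% of the autosomal bases without N. Per base, exonic peaks were therefore 0.512, 0.584 and 0.539 times as dense as peaks in general in the H3K27me3 lists, and 0.379 and 0.414 times as dense in the H3K9me3 lists. Exons of the left-out families, away from gene starts, held 12, 6 and 8 further H3K27me3 summits. They held 553 and 405 further H3K9me3 summits, or 0.732% and 0.742% of those lists. The low H3K9me3 values are thus values with these families left out.

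A different picture was seen within genes. Each gene body was taken outside 1 kb of any gene start, and its peaks were spread over its bases in proportion to length to give the number expected on its own exons. In H3K27me3 NC, 1267 peaks lay on exons of 1720 gene bodies with a peak, beside 971 expected, a ratio of 1.31. The ratio was above 1 on 19 of the 20 chromosomes with at least 5 expected peaks. It was 1.37 in ΔLINC00641 (above 1 on 18 of 20 chromosomes) and 1.302 in ΔSETD5-AS1 (16 of 22). In genes over 100 kb it was higher, at 1.45, 1.56 and 1.43. For H3K9me3 the order was turned, with 962 peaks on exons in NC beside 1403 expected (ratio 0.686, above 1 on 1 of 22 chromosomes) and a ratio of 0.766 in ΔLINC00662 (2 of 22). A peak in an exon of overlapping genes counts once for each gene here. Genes of the left-out families, whose exons held many H3K9me3 summits, do not enter these ratios.

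Within exons, coding sequence (CDS) held more peaks than its length gives. CDS is 32.9% of the eligible sequence and held the summits of 54.8%, 53.7% and 52.6% of the H3K27me3 members and of 46.2% and 49.2% of the H3K9me3 members. The 3′ UTRs are 40.9% of the eligible sequence and held 26.5%, 24.8% and 25.9% of the H3K27me3 members and 33.7% and 29.6% of the H3K9me3 members. The marks parted at 5′ UTRs more than 1 kb from a gene start, which are 4.18% of the eligible sequence and held 8.47%, 9.56% and 9.51% of the H3K27me3 members but 3.89% and 5.73% of the H3K9me3 members. Some of these exons lie at further promoters of the same gene. Of the members, 24.1%, 28.2% and 26.0% for H3K27me3 and 20.1% and 20.5% for H3K9me3 lay within 1 kb of the start of some annotated transcript.

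**Figure D1:**
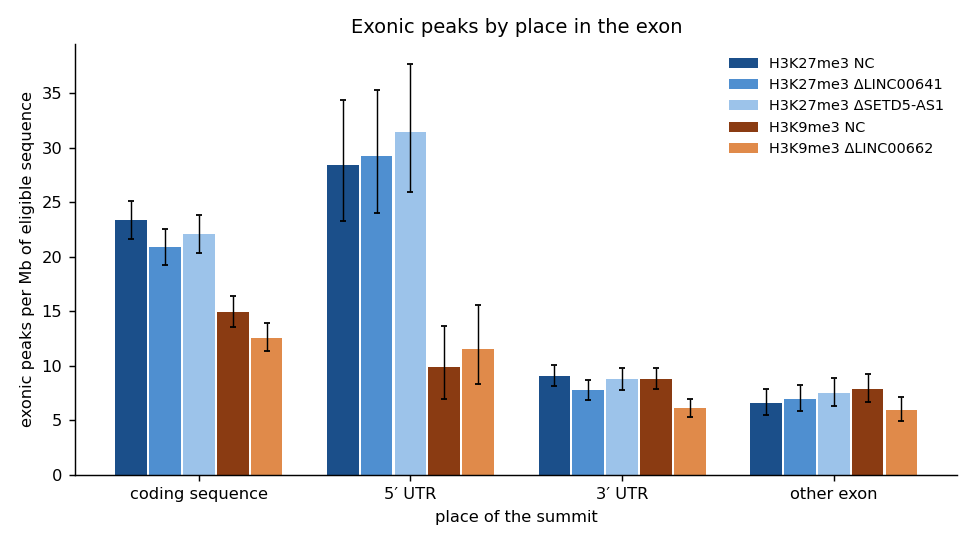
Exonic peaks per Mb of eligible exon sequence (vertical axis) by the place of the summit (horizontal axis) in the 5 lists. Bars are the deposited peaks of each pooled list and error bars are exact Poisson 95% intervals, which cover counting error only. In H3K27me3 NC the CDS held 23.3 peaks per Mb and the 3′ UTRs 9.08, and the 5′ UTRs stood at 28.5 to 31.4 for H3K27me3 and 9.93 to 11.5 for H3K9me3.

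The exons themselves also differed between the marks. The median exon with an H3K27me3 summit was 786, 784 and 823 bp long, whereas it was 1828 and 1858 bp for H3K9me3. The last exon of a transcript held 42.1%, 40.5% and 41.1% of the H3K27me3 members and 55.6% and 53.6% of the H3K9me3 members. Peaks were often wider than the exon for H3K27me3, where 37.3% of the NC members lay wholly in exonic sequence, beside 56.5% for H3K9me3 NC. H3K27me3 members had a median of 21, 16 and 18 other peaks of the list within 50 kb, beside 4 and 4 for H3K9me3 members. This was a trait of the lists as a whole. Over all autosomal peaks the medians were 24, 21 and 22 for H3K27me3, higher than at the members, and 4 and 3 for H3K9me3.

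The fold enrichment of exonic peaks was close to that of other peaks, while H3K27me3 members had a higher −log10 q. Fold enrichment is the number of fragments at the summit over the local input, each plus 1. Its median was 3.43, 3.43 and 3.14 over the H3K27me3 members, beside 3.297, 3.35 and 3.14 over all autosomal peaks, and 3.02 and 3.11 over the H3K9me3 members, beside 3.21 and 3.26. The median −log10 q was 4.26, 4.63 and 4.01 over the H3K27me3 members, beside 3.72, 3.85 and 3.55 over all peaks, and 4.04 and 3.82 over the H3K9me3 members, beside 4.30 and 3.86. The median member held 20, 21 and 21 fragments at the summit for H3K27me3, beside 17, 18 and 19 over all peaks, and 23 and 21 for H3K9me3, beside 22 and 20. A single peak is imprecise at such numbers. The GC content of the members was higher than that of all peaks, with medians of 48.4%, 49.9%, 48.9%, 49.2% and 51.4% beside 45.2%, 47.1%, 46.3%, 47.5% and 50.3% in the order above. Their local input was higher too, at 1.22, 1.46, 1.27, 1.65 and 1.76 times the genome-wide level beside 1.07, 1.14, 1.07, 1.32 and 1.56. At the distance limit, the 78 H3K27me3 NC members up to 0.5 kb beyond it had a median fold enrichment of 3.54, and the 144 exonic peaks up to 0.5 kb within it had 3.45.

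The members were spread unevenly over chromosomes. In H3K27me3 NC, chromosomes 5 and 19 held 36.3 and 36.0 exonic peaks per Mb of eligible sequence, and chromosome 18 held 0.579, or 1 peak. In H3K9me3 NC, chromosome 19, where many zinc finger genes lie, led with 32.4 per Mb, and the lowest was chromosome 11 with 5.72.

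Of 18079 genes with eligible exons, 648, 628 and 651 had an exonic H3K27me3 peak and 738 and 584 an exonic H3K9me3 peak. The H3K27me3 members were gathered in fewer genes, since 122 genes had at least 3 of them in NC, beside 43 genes for H3K9me3. Over the lists of a mark, 362 genes of 988 had an exonic peak in all 3 H3K27me3 lists and 337 of 985 in both H3K9me3 lists. Merged over the lists, the H3K27me3 members formed 2229 regions, of which 360 held an exonic summit in all 3 lists and 1348 in a single list. The H3K9me3 members formed 1357 regions, of which 312 were in both lists.

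The 6 genes with the most exonic H3K27me3 peaks in NC spanned 162 to 652 kb and encode proteins of different kinds. MUC16, which encodes a very large mucin of epithelial surfaces, had 19, then 8 in ΔLINC00641 and 18 in ΔSETD5-AS1. DNAH5, a dynein heavy chain of motile cilia, had 14, 15 and 11, and CSMD2, a large transmembrane protein with CUB and sushi domains, had 13, 10 and 13. ATP10B, a phospholipid-transporting ATPase, had 12, 12 and 9, and NTRK3, the receptor of neurotrophin-3, had 12, 14 and 18. ADCY2, an adenylate cyclase, had 10, 5 and 10. MUC16 and ADCY2 thus had their lowest H3K27me3 count in ΔLINC00641, and NTRK3 had its highest in ΔSETD5-AS1. These exonic peaks were part of wide domains, since CSMD2 held 173 peaks over its body in NC and ADCY2 held 187. Eligible exons are 27.4% of the body of MUC16 but 2.75% of that of CSMD2.

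The genes with the most exonic H3K9me3 peaks in NC held fewer each. APOL6, an apolipoprotein L, and RPAP2, an RNA polymerase II-associated phosphatase, had 5 each. They had 3 and 2 in ΔLINC00662, and neither had a peak in the body in any H3K27me3 list. MUC16 also had 5 in NC and 8 in ΔLINC00662. CACNA1A, the pore of a neuronal calcium channel, and CSMD2 had 4 each, and 1 and 3 in ΔLINC00662. All 5 NC peaks of MUC16 had their summit in CDS, whereas in RPAP2 none of the 5 did.

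Gene groups differed widely in how many of their genes carried an exonic H3K27me3 peak. Of the 97 receptors for neurotransmitters with eligible exons, 24, 22 and 24 had one in NC, ΔLINC00641 and ΔSETD5-AS1. In NC this was 24.7% (Wilson 95% interval 17.2 to 34.2), beside 3.58% of all eligible genes. GRIA1, a subunit of AMPA glutamate receptors, had 5, 10 and 4 exonic peaks, and GRIN2A, a subunit of NMDA receptors, had 5, 8 and 10. Of 245 olfactory receptors, which sense odorants in the nose, 53, 49 and 51 had an exonic peak (21.6% in NC, 16.9 to 27.2). OR8B8 had 3, 2 and 3 peaks and OR56A4 had 3, 2 and 1. Of 138 ion channels, 20, 21 and 23 had a peak (14.5% in NC, 9.58 to 21.3), with CACNA1A at 6, 3 and 4 and CACNA1E at 3, 6 and 6 peaks. Per Mb of eligible exon, these groups held 125, 106 and 45.8 peaks in NC, beside 13.7 over all eligible genes. Mucins, which coat epithelia, had 4, 5 and 5 of 17 genes with a peak (23.5% in NC, 9.56 to 47.3) and 130 peaks per Mb, with MUC17 at 3, 6 and 4 peaks beside those of MUC16.

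Other groups had an exonic H3K27me3 peak in a smaller share of their genes in NC. For giant structural genes, for laminins, fibrillins and ADAMTS proteases and for cadherins, the NC interval still lay above the 3.58% of all eligible genes. Of 47 giant structural genes, which include DNAH5 and CSMD2, 6, 4 and 5 had an exonic H3K27me3 peak (12.8% in NC, 5.98 to 25.2), with 47.9 peaks per Mb in NC. Of 51 laminins, fibrillins and ADAMTS proteases, 5, 6 and 8 had a peak (9.80% in NC, 4.26 to 21.0). ADAMTS12, a metalloprotease, stood at 5, 4 and 1 peaks and TNR, the matrix protein tenascin-R, at 2, 4 and 6. Of 57 cadherins outside the protocadherin clusters, 5, 6 and 4 had a peak (8.77% in NC, 3.81 to 18.9), with CDH11 at 2, 4 and 5 peaks and CDH13 at 1, 1 and 3. Per Mb of eligible exon, however, cadherins held 12.4 peaks in NC, fewer than the 13.7 over all eligible genes. In ΔLINC00641 and ΔSETD5-AS1 they held 18.5 and 20.6, beside 12.5 and 13.5. Developmental transcription factors other than HOX genes had 12, 18 and 15 of 213 (5.63% in NC, 3.25 to 9.59), with TFAP2B at 3, 3 and 1 peaks and POU5F1B, a gene related to POU5F1, at 3, 4 and 2. Of 42 collagens, 1, 2 and 2 had a peak (2.38% in NC), with COL22A1 at 8, 6 and 8 and COL6A3 at 0, 1 and 2.

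The remaining groups ranged from 0 to shares near that of all genes. None of the 39 HOX genes, which specify position along the body axis, had one in any H3K27me3 list, which allows a share of up to 7.69% (3 counts), and their eligible exons come to 0.064 Mb. Of 86 genes for WNT, FGF, BMP and hedgehog signals, 3, 1 and 3 had one (3.49% in NC), and among them SHH had 1, 0 and 1 peaks and BMP6 1, 1 and 0. Of 370 solute carriers, 14, 12 and 10 had one (3.78% in NC), with SLC6A5, a glycine transporter, at 3, 2 and 3 peaks and SLC22A25 at 2, 2 and 3. Of 88 keratins and keratin-associated proteins, 1, 3 and 5 had one (1.14% in NC and 5.68% in ΔSETD5-AS1), with KRT6A at 1, 1 and 1 and KRT6C at 0, 1 and 0. None of 115 ribosomal and proteasome proteins, which every cell makes, had one, which allows up to 2.61%. Of 24 genes for enzymes that place the marks and for proteins related to them, CBX8 alone had a peak, 1 in ΔLINC00641.

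For H3K9me3 the order of the groups was different. Of 136 zinc finger genes not named ZNF, 35 had an exonic peak in NC (25.7%, 19.1 to 33.7) and 24 in ΔLINC00662 (17.6%, 12.2 to 24.9), beside 4.08% and 3.23% of all eligible genes. For H3K27me3 they were 3, 4 and 4 of 136. ZFP82 had 4 exonic H3K9me3 peaks in NC and 2 in ΔLINC00662, and PEG3, an imprinted zinc finger gene, had 2 and 1 beside 2, 1 and 1 for H3K27me3. Mucins had a higher share, with 6 and 6 of 17 (35.3% in each list, 17.3 to 58.7), an interval that overlaps those of the zinc finger genes. Per Mb of eligible exon, mucins held 99.0 and 135 peaks, beside 68.9 and 42.5 for zinc finger genes. Giant structural genes had 9 and 12 of 47 (19.1% and 25.5%), cadherins 11 and 7 of 57, and neurotransmitter receptors 13 and 12 of 97. Olfactory receptors had 21 and 21 of 245 (8.57%, 5.67 to 12.7), fewer than for H3K27me3. Among HOX genes HOXD3 had 1 exonic H3K9me3 peak in each list, and among ribosomal and proteasome proteins RPS29 had 1 in NC. Neighbouring genes of a family can share a domain, and the intervals take genes as independent.

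**Figure D2:**
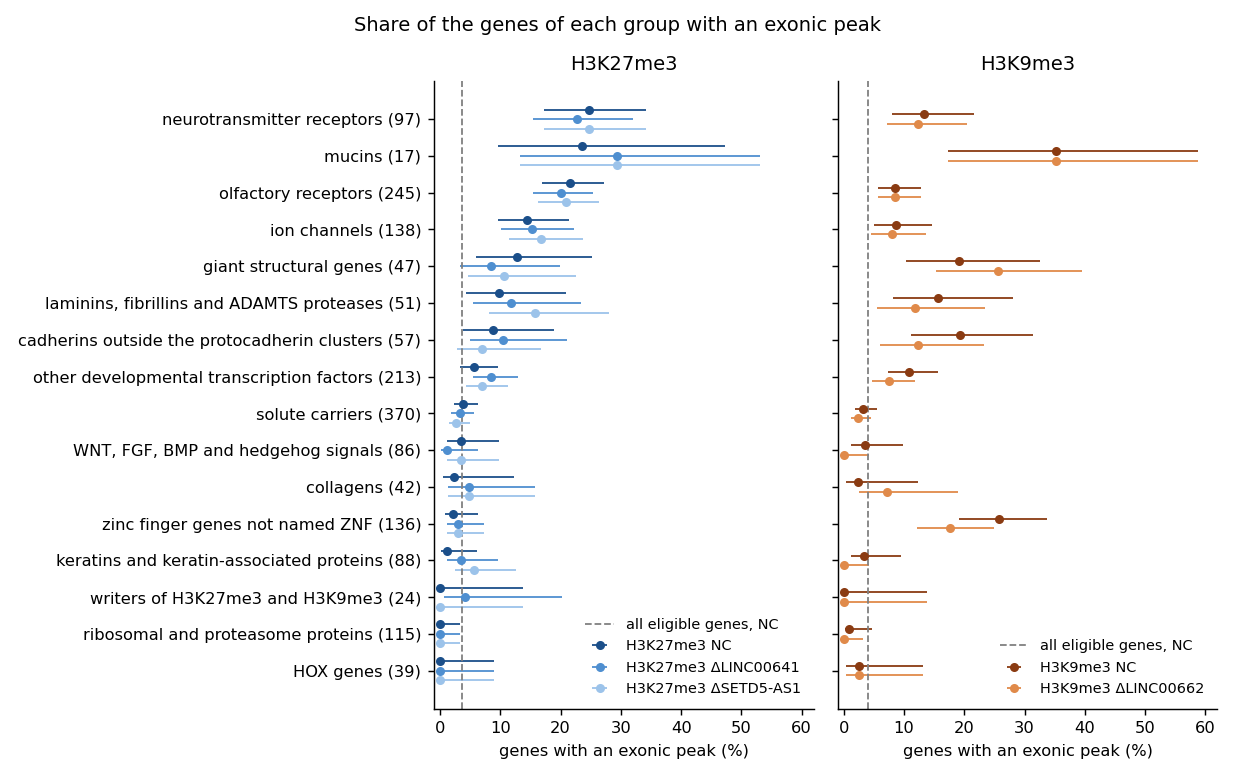
Share of the genes of each group, in percent, that had an exonic peak (horizontal axis), with the number of eligible genes of the group in brackets. Points are the 5 pooled lists, bars are Wilson 95% intervals and the dashed line is the share of all eligible genes in NC, 3.58% for H3K27me3 and 4.08% for H3K9me3. Neurotransmitter receptors reached 24.7% for H3K27me3 in NC. For H3K9me3 in NC, zinc finger genes not named ZNF reached 25.7% and mucins 35.3%.

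The strongest coding-sequence peaks of H3K27me3 in NC were those of EGR4, TCHH, CACNA1E, PTH2R and KCNMA1, ranked by −log10 q among peaks with a local input of at most 5 times the genome-wide level. Intervals of fold enrichment below are exact Poisson 95% intervals of the fragments and cover counting error only. The peaks were chosen for their values in NC, so a lower value in another list supports nothing by itself. EGR4, an immediate early zinc finger factor (chr2:73517679-73520532, last exon), had a fold enrichment of 8.37 in NC (6.47 to 10.6), 5.71 in ΔLINC00641 (4.49 to 7.16) and 4.23 in ΔSETD5-AS1 (3.21 to 5.47). Its interval in ΔSETD5-AS1 did not overlap that in NC, while its local input was 1.76, 3.16 and 2.81 times the genome-wide level and its fragments numbered 64, 73 and 56. CACNA1E, a calcium channel of neurons (chr1:181452246-181454077), had 7.80 (5.76 to 10.4), 5.48 (3.97 to 7.39) and 3.90 (2.76 to 5.36). The intervals of NC and ΔSETD5-AS1 did not overlap for this gene either. Its summit lay in the first exon of a transcript, 166191 bp from the nearest gene start. That summit was within 1 kb of an annotated transcript start, as were those of PTH2R and KCNMA1. The summits of EGR4 and TCHH were not, and lay 1309 and 5601 bp from the nearest gene start.

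The other 3 did not share this order. TCHH, the trichohyalin of hair follicles (chr1:152078789-152084300), had 4.95 (3.90 to 6.18), 5.76 (4.66 to 7.03) and 3.76 (2.97 to 4.71). PTH2R, a parathyroid hormone receptor (chr2:209270415-209272523), had 6.97 (5.14 to 9.24), 6.89 (5.35 to 8.73) and 8.02 (6.22 to 10.2). KCNMA1, a calcium-activated potassium channel (chr10:79395595-79397330), had 5.33 (4.08 to 6.85), 6.97 (5.45 to 8.78) and 5.83 (4.40 to 7.60). For these genes the intervals of NC overlapped those of both depletions.

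The strongest coding-sequence peaks of H3K9me3 in NC were lower in ΔLINC00662 in all 5 cases. They too were chosen for their values in NC, so this by itself supports nothing. ZFP62, a zinc finger gene (chr5:180275654-180279551, last exon), had a fold enrichment of 12.1 in NC (9.55 to 15.2) from 73 fragments and 3.67 in ΔLINC00662 (2.48 to 5.25) from 28. Its local input was 1.19 and 1.97 times the genome-wide level. ZKSCAN5, a zinc finger gene with SCAN and KRAB domains (chr7:99126212-99130051), had 8.95 (6.83 to 11.5) and 4.85 (3.36 to 6.78), and its single NC peak overlapped 3 peaks in ΔLINC00662, the strongest of which is given. For both genes the intervals did not overlap. TAF7, a subunit of the general transcription factor TFIID that lies between protocadherin clusters (chr5:140698390-140699684), had 8.07 (6.14 to 10.4) and 4.60 (3.09 to 6.62). The gene listed as ENSG00000290183 (chr16:3337936-3342632) had 6.85 (5.27 to 8.77) and 5.04 (3.75 to 6.65), and ZFP90 (chr16:68596424-68601346) had 7.25 (5.31 to 9.68) and 4.22 (2.59 to 6.54). For the last 3 the intervals overlapped.

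**Figure D3:**
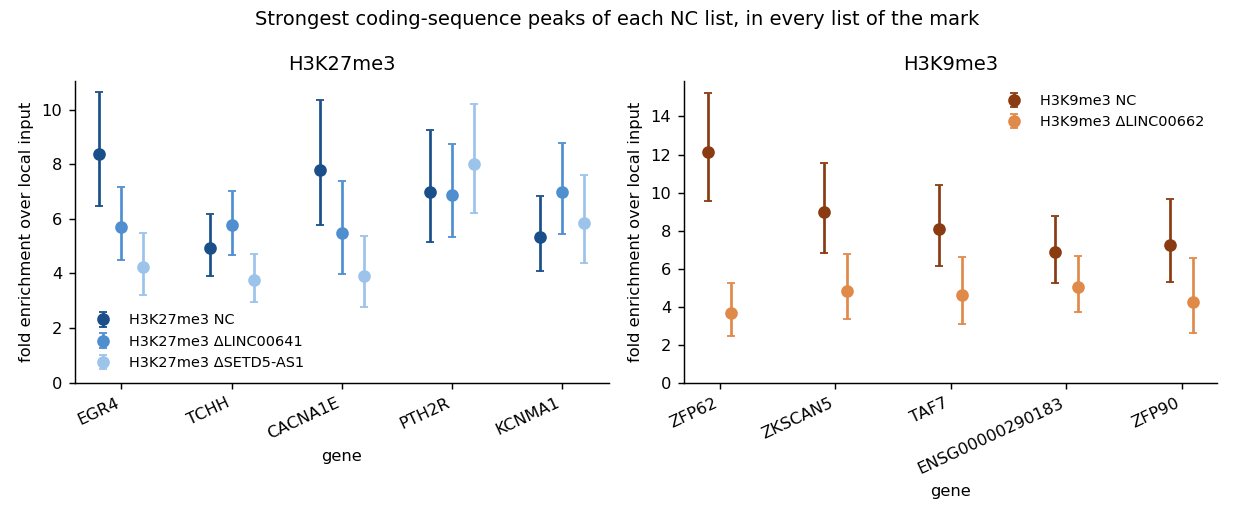
Fold enrichment over local input (vertical axis) of the 5 strongest coding-sequence peaks of each NC list in every list of the mark, by gene (horizontal axis). Points are pooled lists and bars are exact Poisson 95% intervals of the summit fragments. ZFP62 stood at 12.1 in NC and 3.67 in ΔLINC00662, the widest gap among the genes drawn, whereas PTH2R stood between 6.89 and 8.02.

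To ask which exonic peaks remain after depletion, NC peaks were called retained when a peak of the other list overlapped them by at least 1 bp, lost when none did, and depletion peaks without an NC partner were called new. In ΔLINC00641, 794 of the 1251 exonic NC peaks were retained, or 63.5% (Wilson 95% interval 60.8 to 66.1), beside 51.6% of all autosomal NC peaks. The share ran from 35.0% on chromosome 14 to 80.6% on chromosome 17, over the 19 chromosomes with at least 10 members. Of the 1140 exonic peaks of ΔLINC00641, 323 were new (28.3%, 25.8 to 31.0), beside 34.3% of all. The number of exonic peaks was 0.911 times that in NC, beside 0.798 for all peaks, and it was lower on 14 chromosomes and higher on 6. At a −log10 q of at least 5 the number was 1.00 times that in NC, beside 0.916 for all peaks.

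In ΔSETD5-AS1, 807 of the same 1251 NC peaks were retained, or 64.5% (61.8 to 67.1), beside 55.0% of all. Of its 1230 exonic peaks, 400 were new (32.5%, 30.0 to 35.2), beside 39.5%. Exonic peaks were 0.983 times as many as in NC, with 11 chromosomes lower and 10 higher, beside 0.935 for all peaks. At a −log10 q of at least 5 the order turned, with 0.897 for exonic peaks beside 0.942 for all. Both H3K27me3 comparisons share the NC list, so their shares are not independent.

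In ΔLINC00662, 391 of the 950 exonic H3K9me3 NC peaks were retained, or 41.2% (38.1 to 44.3), beside 38.0% of all. Of its 750 exonic peaks, 334 were new (44.5%, 41.0 to 48.1), beside 44.7%. Exonic peaks were 0.789 times as many as in NC, with 19 chromosomes lower and 2 higher, beside 0.723 for all peaks. The ΔLINC00662 list is also the shallower, at 34.6 M fragments beside 42.2 M in NC, and the part of depth was not tested. Here the exonic peaks stood close to the background, whereas for H3K27me3 they were retained more often than peaks in general. This contrast depended on the threshold. At a −log10 q of at least 5, 34.5% of exonic H3K9me3 NC peaks were retained, beside 28.1% of all. The new share was then 42.0%, beside 51.8%.

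Part of the excess of retained exonic H3K27me3 peaks, without a limit on −log10 q, moved with GC content and strength. Weighted to the GC content and −log10 q of the exonic peaks, in 5 groups each, the retained share of all NC peaks was 59.6% in ΔLINC00641 and 61.2% in ΔSETD5-AS1, still below the intervals of the exonic shares, and 41.3% in ΔLINC00662, which lies inside the interval of the exonic share. Peak width was not weighted, and its part was not tested. The median width in H3K27me3 NC was 594 bp for members, beside 516 bp over all peaks. Retention moved with GC content and with −log10 q. In the lowest of 5 groups of −log10 q in NC, 42.7%, 45.6% and 25.4% of exonic peaks were retained in ΔLINC00641, ΔSETD5-AS1 and ΔLINC00662, and in the highest group 89.1%, 89.9% and 71.0%.

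Among groups of GC content, the lowest was retained least. In the lowest of 5 GC groups, 35.1% (28.6 to 42.3), 48.0% (40.7 to 55.4) and 25.5% (19.2 to 33.1) of exonic NC peaks were retained in ΔLINC00641, ΔSETD5-AS1 and ΔLINC00662, beside 31.0%, 37.5% and 22.8% of all NC peaks. In the highest GC group the shares were 77.6% (73.4 to 81.4), 69.5% (65.1 to 73.6) and 49.4% (43.4 to 55.5), beside 66.3%, 63.3% and 52.0%. The number of exonic peaks relative to NC was also lowest in the lowest group, at 0.459, 0.606 and 0.376, and it was 1.19, 1.02 and 1.06 in the highest. In ΔSETD5-AS1 it peaked in the group before the highest, at 1.15. All autosomal peaks showed 0.417, 0.617 and 0.289 in the lowest group. The GC content of the lists thus moved with the depletion at exons as elsewhere, and an effect of the depletion and a difference between the pooled libraries cannot be told apart.

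**Figure D4:**
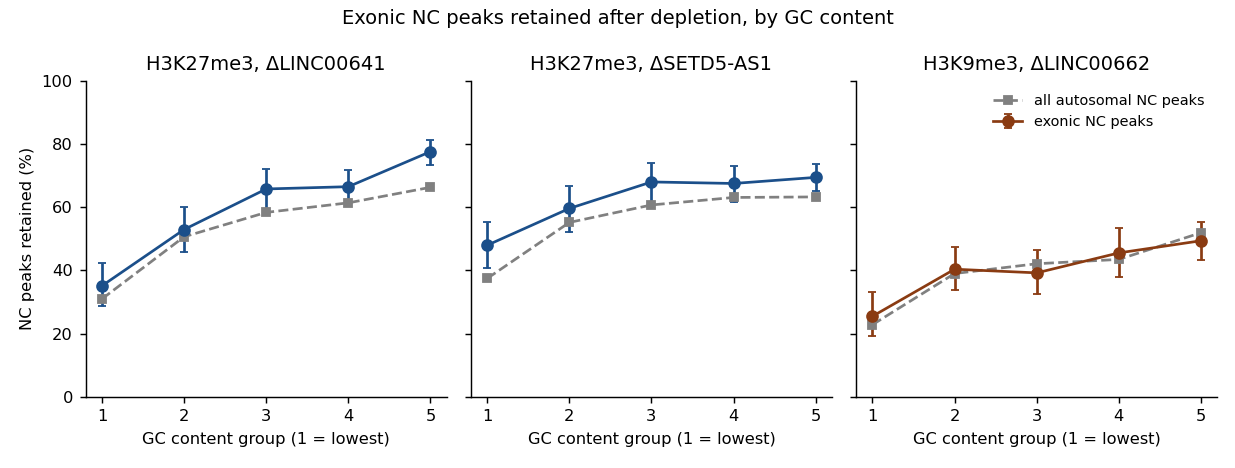
Share of NC peaks retained after depletion, in percent (vertical axis), in 5 groups of GC content (horizontal axis, lowest first, each with an equal number of peaks over both lists) in the 3 comparisons. Circles are exonic NC peaks with Wilson 95% intervals and grey squares are all autosomal NC peaks. The exonic share climbed from 35.1% to 77.6% in ΔLINC00641, and in ΔLINC00662 the exonic and the grey points lay together.

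The place within the gene also moved with retention. First exons of a transcript retained 79.4% of their exonic NC peaks in ΔLINC00641 (72.5 to 84.9, n = 160), beside 61.6% for internal exons (57.3 to 65.7, n = 518) and 58.8% for last exons (54.6 to 62.9, n = 527). In ΔSETD5-AS1 the shares were 74.4% (67.1 to 80.5), 63.5% (59.3 to 67.5) and 62.2% (58.0 to 66.3). In ΔLINC00662 they were 47.3% (37.5 to 57.4), 36.9% (31.6 to 42.7) and 40.5% (36.4 to 44.8), which overlap. Genes of a single exon retained 82.6% in ΔLINC00641 (69.3 to 90.9, n = 46), 67.4% in ΔSETD5-AS1 (53.0 to 79.1) and 64.3% in ΔLINC00662 (49.2 to 77.0, n = 42), and the last of these intervals lies above those of internal and last exons. The median GC content in H3K27me3 NC was 51.6% for first exons and 51.8% for single exons, beside 48.3% for internal and 47.2% for last exons. Lost exonic peaks were narrower and weaker than retained ones, with a median width of 411 bp beside 795 bp in ΔLINC00641, 392 beside 798 bp in ΔSETD5-AS1 and 408 beside 695 bp in ΔLINC00662.

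A retained peak did not always keep its summit on the exon. The overlapping peak was itself an exonic member for 553 of 794 retained peaks in ΔLINC00641 (69.6%), 559 of 807 in ΔSETD5-AS1 (69.3%) and 315 of 391 in ΔLINC00662 (80.6%). At the level of genes, 431 of the 648 NC genes also had an exonic peak in ΔLINC00641 (66.5%, 62.8 to 70.0), which is 68.6% of its 628 genes. For ΔSETD5-AS1 it was 441 of 648 (68.1%, 64.4 to 71.5), or 67.7% of its 651 genes, and for ΔLINC00662 337 of 738 (45.7%, 42.1 to 49.3), or 57.7% of its 584.

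Where both lists held a peak, its enrichment was on the whole alike. Over exonic NC peaks and their partner where each overlapped the other alone, the median log2 ratio of fold enrichment (depletion over NC) was 0.02 in ΔLINC00641 (557 pairs, quartiles -0.28 and 0.30), -0.08 in ΔSETD5-AS1 (545 pairs, -0.33 and 0.19) and 0.05 in ΔLINC00662 (330 pairs, -0.20 and 0.31). Over all autosomal pairs it was 0.01, -0.08 and 0.03. The SD of the exonic median over chromosomes with at least 5 pairs was 0.16, 0.11 and 0.20, larger than each median in size. Exonic pairs at least 1.5-fold higher numbered 44 in ΔLINC00641 (7.90%, beside 7.02% of all pairs), 34 in ΔSETD5-AS1 (6.24%, beside 4.21%) and 32 in ΔLINC00662 (9.70%, beside 10.4%). Those at least 1.5-fold lower numbered 38 (6.82%, beside 6.33%), 42 (7.71%, beside 8.79%) and 23 (6.97%, beside 8.83%). The widest gaps from the background were those of the higher share in ΔSETD5-AS1 and the lower share in ΔLINC00662. No interval was made for these shares, so no gap is read as a difference.

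**Figure D5:**
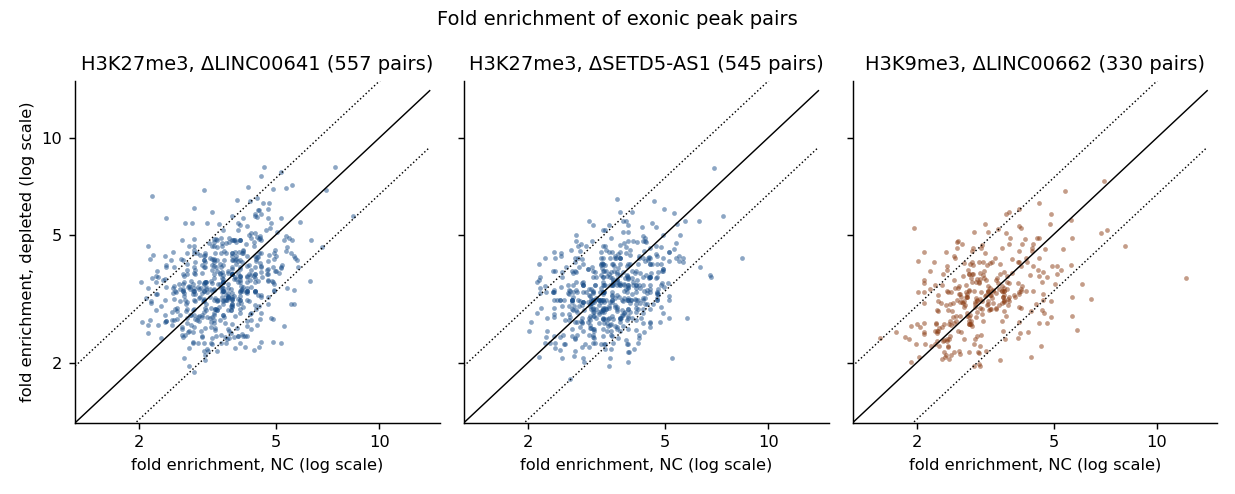
Fold enrichment of exonic peak pairs in NC (horizontal axis, log scale) and after depletion (vertical axis, log scale) in the 3 comparisons. Each point is a pair of pooled peaks, the solid line marks equal values and the dotted lines a 1.5-fold difference. Points scatter around the line of equal values, with medians of 0.02, -0.08 and 0.05 on the log2 scale, and ZFP62 stands alone at 12.1 in H3K9me3 NC.

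Named losses and gains are given by the largest −log10 q. Lost peaks in ΔLINC00641 were led by an internal coding exon of GRIA1 (chr5:153029622-153030357), with a fold enrichment of 5.08 in NC (3.41 to 7.31, 27 fragments), and by THSD7B, a thrombospondin-domain gene (chr2:138417128-138417446), with 5.15 (3.37 to 7.56) in NC and 3.13 (1.87 to 4.97) in ΔSETD5-AS1. The GRIA1 peak was also lost in ΔSETD5-AS1, which shares the NC list, although GRIA1 had 10 and 4 exonic peaks elsewhere in these lists, beside 5 in NC. The strongest lost peak in ΔSETD5-AS1 was INSM2, a zinc finger factor of neuroendocrine cells with a single exon (chr14:36004146-36005235), with 4.99 in NC (3.61 to 6.72) and 4.28 (3.19 to 5.63) in ΔLINC00641. New in ΔLINC00641 were a 5′ UTR of AUTS2 (chr7:70061416-70061939), at 5.99 (4.18 to 8.34), and a coding exon of DGKI, a diacylglycerol kinase (chr7:137153918-137154465), at 5.98 (4.05 to 8.56), which also had a peak of 4.56 in ΔSETD5-AS1. New in ΔSETD5-AS1 were the 3′ UTR of NTRK3 (chr15:88405892-88406777), at 5.41 (3.70 to 7.64), and a coding exon of UNC80, a subunit of the NALCN channel complex (chr2:210678230-210678658), at 5.06 (3.42 to 7.23).

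In H3K9me3 the strongest lost peaks were an exon of CHD2, a chromatin remodeller (chr15:93487654-93488967), at 6.45 in NC (4.57 to 8.87), and the 3′ UTR of REL, an NF-κB subunit (chr2:61155125-61156407), at 6.42 (4.48 to 8.94). New in ΔLINC00662 were the 3′ UTR of KIAA0825 (chr5:93486616-93487114), at 4.81 (3.29 to 6.80), and an exon of the gene listed as ENSG00000285854 (chr12:21710537-21710893), at 4.65 (3.17 to 6.62). A peak list gives no level where no peak was called, so the size of these losses and gains is not known. Each rests on 24 to 41 fragments.

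The exonic pairs with the largest differences, taken where −log10 q reached 5 in NC and after depletion alike, were chosen for that difference and are a description. In ΔLINC00641, DRD2, a dopamine receptor (chr11:113344074-113345876), was at 2.88 in NC (2.09 to 3.86) and 6.03 (4.56 to 7.83), and NPIPB4, of the multi-copy NPIP family whose reads may be shared between copies (chr16:21846810-21848470), at 2.85 (2.03 to 3.91) and 5.43 (4.33 to 6.73). NPIPB4 was also among the largest in ΔSETD5-AS1, at 4.67 (3.62 to 5.95), together with IVL, the involucrin of skin (chr1:152882401-152884186), at 3.63 in NC (2.38 to 5.32) and 6.44 (4.52 to 8.93). Among the lowest ratios in ΔLINC00641 was that of PRSS1, a trypsinogen (chr7:142456707-142460951), at 4.39 (3.26 to 5.80) and 2.62 (1.91 to 3.50). In ΔSETD5-AS1 the lowest were those of EGR4, given above, and CYP4F2, a fatty acid hydroxylase (chr19:15989190-15991427), at 6.75 (4.71 to 9.39) and 3.76 (2.52 to 5.40). Local input, relative to the genome-wide level, differed too. At DRD2 it was 3.62 in NC and 2.15 in ΔLINC00641 (42 and 54 fragments), and at PRSS1 2.64 and 4.18 (48 and 43). At IVL it was 1.53 in NC and 1 in ΔSETD5-AS1 (24 and 34 fragments), and at CYP4F2 1.05 and 1.46 (33 and 27). At NPIPB4 it was 3.20, 3.73 and 2.91 in NC, ΔLINC00641 and ΔSETD5-AS1 (37, 81 and 64 fragments).

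In ΔLINC00662 the highest ratios were those of OR10H4, an olfactory receptor (chr19:16059690-16060309), at 2.63 in NC (1.89 to 3.57) and 4.77 (3.20 to 6.86), and TTC3, a ubiquitin ligase (chr21:38480056-38480404), at 3.63 (2.401 to 5.30) and 5.78 (3.82 to 8.42). The lowest were those of ZFP62, with a log2 ratio of -1.73, and TAF7, with -0.81. The local input at OR10H4 was 3.31 times the genome-wide level in NC and 1.39 times in ΔLINC00662, so its fragments were 39 and 27 although its fold enrichment was higher. At TTC3 the local input was 1.43 and 1 times that level, and the fragments were 25 and 25.

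Zinc finger genes not named ZNF, the group with the most exonic H3K9me3 genes by number though not by share, held 60 exonic peaks in NC and 37 in ΔLINC00662, 0.617 times as many. Of the 60, 28 were retained (46.7%, 34.6 to 59.1), beside 35.6% of all NC peaks of the same GC content. Of the 37, 2 were new (5.41%, 1.495 to 17.7), beside the 44.5% over all exonic peaks of ΔLINC00662, so nearly all of them lay where NC already had a peak. At the 19 pairs of this group the median log2 ratio was -0.05, where 10 were lower, 4 of these by at least 1.5-fold, and 2 were at least 1.5-fold higher. ZFP62 is one of the 4, and its log2 ratio of -1.73 stands far from the median of its group.

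Other groups are given by their counts. Neurotransmitter receptors held 75 exonic H3K27me3 peaks in the NC list, 58 in that of ΔLINC00641 and 64 in that of ΔSETD5-AS1, and 54.7% (43.4 to 65.4) and 65.3% (54.1 to 75.1) were retained. Of all NC peaks of the same GC content, 49.2% and 52.6% were retained. Olfactory receptors held 71, 54 and 63, of which 52.1% (40.7 to 63.3) and 47.9% (36.7 to 59.3) were retained, beside 54.7% and 57.5% of all NC peaks of the same GC content, which lie inside these intervals. Ion channels held 45, 50 and 55, with 62.2% and 66.7% retained, beside 58.6% and 59.5% of all NC peaks of the same GC content. Developmental transcription factors other than HOX genes held 19, 26 and 20, and 18 of the 19 were retained in ΔLINC00641 (94.7%, 75.4 to 99.1) and 13 in ΔSETD5-AS1 (68.4%, 46.0 to 84.6). The shares of all NC peaks of the same GC content were 59.5% and 59.6%. Mucins held 25, 20 and 26 for H3K27me3, with 12 and 19 of the 25 retained (48.0% and 76.0%), and 19 and 26 for H3K9me3, with 14 of the 19 retained (73.7%, 51.2 to 88.2). All NC peaks of the same GC content stood at 62.8% and 63.0% for H3K27me3 and at 45.2% for H3K9me3.

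Exonic peaks of both marks overlapped in part. In NC, 145 of the 1251 exonic H3K27me3 peaks overlapped an H3K9me3 peak (11.6%, 9.93 to 13.5), beside 9.93% of all autosomal H3K27me3 peaks. Of the 950 exonic H3K9me3 peaks, 161 overlapped an H3K27me3 peak (16.9%, 14.7 to 19.5), beside 9.93% of all, and among those in CDS the share was 23.5%. Both marks came from separate chromatin samples of many cells, so an overlap does not place them on 1 molecule. The strongest were TCHH, with a fold enrichment of 4.95 for H3K27me3 and 3.84 (2.91 to 4.98) for H3K9me3, CCK, the gut and brain peptide cholecystokinin (chr3:42304685-42307494), with 4.51 (3.18 to 6.23) and 4.32 (3.06 to 5.93), and an internal coding exon of CACNA1A (chr19:13562877-13564618), with 5.08 (3.41 to 7.31) and 5.86 (4.01 to 8.28). In ΔLINC00662 the H3K9me3 peak was absent at TCHH, at 2.78 (1.86 to 3.997) at CCK and at 2.52 (1.55 to 3.91) at CACNA1A, and the H3K27me3 peaks of all 3 genes were present in both depletions.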

How the data were processed

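Reads had been trimmed by the authors (Cutadapt 3.3) and mapped to hg19 (Bowtie2 2.4.2), and duplicates had been taken out (GATK), per the study's methods and the submitters' processing notes. The 3 replicates of each group were then joined, and MACS2 2.2.7.1 compared each joined ChIP with its joined input. For each peak the authors deposited a fold enrichment, which is a ratio to the local input with a pseudocount of 1, a −log10 p-value and a −log10 q-value. The score that the authors deposited beside them was not used. Fragments and local input at each summit were solved from fold enrichment and −log10 p, and came out whole for 99.9% to 100.0% of peaks. The genome-wide level was 3.50 to 4.43 fragments per base. Exons, gene starts and UTRs came from GENCODE 44 lifted to GRCh37, whose main chromosomes share coordinates with hg19. Where exon types overlap, CDS was taken first.

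The lists were assigned to groups by the sample labels. Regions were named by rule, among peaks with a local input of at most 5 times the genome-wide level: the 6 genes with the most members and the 5 strongest coding-sequence peaks of each NC list, the 2 strongest lost and new peaks and the 2 highest and 2 lowest pairs per comparison, the 3 strongest regions with both marks, and 2 genes per gene group. Some items that this rule names are not reported here. The members, rules and gene groups were chosen with earlier results of these data known. Replicates were merged before peak calling, so no test was made. Wilson and Poisson 95% intervals cover counting error only. As alternatives, peaks were limited to a −log10 q of 5 or more, to CDS summits, to summits away from every transcript start, or to a local input of at most 5 times the genome-wide level, and an overlap had to cover at least 50% of the shorter peak. The GC and CpG windows, the motif and the retention per gene group were added with the results in view. Scripts ran under Python 3.11.15 with scipy 1.17.1, numpy 2.4.6, pysam 0.24.0, pandas 2.3.3 and matplotlib 3.10.9, and samtools 1.23.1 indexed the genome. They were tested on simulated data.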

Additional observations from a re-analysis of the deposited data

How the results depend on the processing

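Of 68 values recomputed under an alternative, 43 stayed within the counting interval of the value reported (1.5 times for ratios of numbers, 1 SD over chromosomes for log2 ratios) and 25 moved. The exonic share of the H3K27me3 peaks in NC, ΔLINC00641 and ΔSETD5-AS1 was 2.397%, 2.63% and 2.28% at a −log10 q of at least 5. With every transcript start it was 1.29%, 1.39% and 1.32%, and 1.00% and 1.09% for H3K9me3 in NC and ΔLINC00662. With CDS summits alone it was 0.930%, 1.04%, 0.940%, 0.581% and 0.676%. The last 2 settings leave fewer eligible bases. The retained share in ΔLINC00641, ΔSETD5-AS1 and ΔLINC00662 was 60.6%, 58.9% and 34.5% at a −log10 q of at least 5, beside 48.3%, 46.0% and 28.1% of all NC peaks. It was 58.4%, 59.0% and 37.8% with an overlap of at least 50%, beside 45.4%, 48.1% and 35.1%, and 59.3% in ΔLINC00641 with every transcript start. The new share was 38.2% and 39.7% in ΔLINC00641 and ΔSETD5-AS1 at a −log10 q of at least 5, beside 45.8% and 49.4% of all, and 34.4%, 37.7% and 49.5% in the 3 comparisons with an overlap of at least 50%, beside 41.7%, 46.8% and 48.8%. The number of exonic peaks over NC was 0.897 in ΔSETD5-AS1 at a −log10 q of at least 5, beside 0.942 for all peaks, so that exonic peaks then lay below all peaks and not above. The median log2 ratio in ΔLINC00641 was -0.04 with every transcript start and with CDS summits alone, within 1 SD of 0.02. At a −log10 q of at least 5 the new share in ΔLINC00662 was 42.0%, beside 51.8% of all. With that limit exonic H3K9me3 peaks thus no longer stood close to the background, in either the retained or the new share.

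No paired analysis was possible because each list was called on merged replicates, which also means that leaving out a replicate was not possible. The median exonic peak rests on 20 to 23 fragments at its summit, so losses and gains of single weak peaks are not resolved at this depth. The cause of the values that moved at a −log10 q of at least 5 was not tested.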
